A study of Mus musculus with 3 samples.

Results

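Elane Mpo myeloid progenitors are described here as 204 barcodes of 12790 kept, out of 15624 in 3 single-cell libraries of mouse bone marrow. A barcode, the tag of a droplet that stands for a cell, was kept if it showed 500 genes or more and no more than 10% of its UMIs (unique molecular identifiers, 1 per captured transcript) came from mitochondrial genes. It was chosen when its raw UMIs of Elane, Mpo and Prtn3 summed to at least 5, with at least 2 of the 3 genes detected, no UMI of the endothelial gene Cdh5 and at most 5 UMIs of the stromal gene Cxcl12. The rule took 85 of 4318 barcodes in the WT library (1.97%, from 1.58 to 2.43), 85 of 5734 in the FLOX library (1.48%, from 1.19 to 1.83) and 34 of 2738 in the VC library (1.24%, from 0.861 to 1.73). Intervals in parentheses are exact at 95%, binomial for shares and Poisson for levels, and cover counting error only. The barcodes were chosen by their measured UMIs of these 5 genes. The levels of Elane, Mpo and Prtn3 in them, and their differences from other cells, are therefore descriptions and not tests.

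The study sorted endothelial cells and LepR-positive stromal cells from tibial marrow to examine the vascular niche after loss of Vegfc, a ligand of the receptors Flt4 and Kdr. There was 1 library per genotype, so no difference between libraries has a replicate check and no test was run. WT mice were wild type, FLOX mice were Vegfc flox/flox with no Cre in the label, and VC mice were Cdh5CreERT2;Vegfc flox/flox, in which the Cdh5 promoter drives a Cre recombinase switched on by tamoxifen in endothelium. All were of strain C57Bl/6JCrl and all received tamoxifen by gavage, controls included. The number of mice behind a library, their ages and the gates of the sort were not stated in what was read here. Blood-forming cells were not the target of the sort, and CD45 and Ter119 had been stained, so the share of such barcodes in a library can be set by the sort.

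Neutrophils and monocytes arise in marrow from shared progenitors that commit to either line while they still divide. At the promyelocyte stage the cells fill their primary (azurophil) granules with myeloperoxidase and the serine proteases neutrophil elastase, proteinase 3 and cathepsin G, which are made in a short window and then stored. Neutrophil precursors next make specific granule proteins such as lactoferrin and the cathelicidin Camp, under the factor Cebpe, while Irf8 and Klf4 direct the monocyte line.

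The 3 rule genes and Ctsg, the gene of cathepsin G, have their start sites at 3 places in the genome, and the 250 bases before each start are shown because the genes were detected together in these cells. Sequences and positions are from RefSeq, build GRCm38.p6. Elane (chr10:79886312-79888216) lies just downstream of Prtn3 (chr10:79879667-79883174), Mpo is at chr11:87793784-87804412 and Ctsg at chr14:56099885-56102574. The windows shown are chr10:79886062-79886311 (+ strand), chr10:79879417-79879666 (+), chr11:87793534-87793783 (+) and chr14:56102575-56102824 (- strand), each read 5′ to 3′ towards the gene. Capitals mark AGGAAGT, a motif of ETS factors such as PU.1, and AACGG, a core motif of Myb, both searched on either strand and chosen after the sequences had been seen.
Elane: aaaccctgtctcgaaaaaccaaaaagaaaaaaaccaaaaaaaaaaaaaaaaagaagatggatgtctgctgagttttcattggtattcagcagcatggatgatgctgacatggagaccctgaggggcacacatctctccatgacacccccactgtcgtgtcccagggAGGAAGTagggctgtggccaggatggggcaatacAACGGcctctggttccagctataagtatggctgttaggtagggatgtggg
Prtn3: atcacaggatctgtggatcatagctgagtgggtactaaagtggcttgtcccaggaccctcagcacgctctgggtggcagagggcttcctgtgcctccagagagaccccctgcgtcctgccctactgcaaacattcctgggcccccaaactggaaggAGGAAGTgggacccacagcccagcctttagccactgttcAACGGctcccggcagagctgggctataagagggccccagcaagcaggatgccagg
Mpo: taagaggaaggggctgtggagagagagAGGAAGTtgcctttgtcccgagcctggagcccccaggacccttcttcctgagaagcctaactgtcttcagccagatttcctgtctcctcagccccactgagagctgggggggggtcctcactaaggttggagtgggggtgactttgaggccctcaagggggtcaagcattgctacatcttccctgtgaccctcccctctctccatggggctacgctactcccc
Ctsg: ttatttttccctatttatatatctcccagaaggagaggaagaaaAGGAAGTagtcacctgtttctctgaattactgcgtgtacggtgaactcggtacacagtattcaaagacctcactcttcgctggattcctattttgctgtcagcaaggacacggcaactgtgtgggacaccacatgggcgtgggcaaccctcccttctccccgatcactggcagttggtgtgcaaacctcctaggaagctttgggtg

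AGGAAGT was found in all 4 windows, starting 84 bases before the start of Elane, 94 before Prtn3, 223 before Mpo and 206 before Ctsg. AACGG was found in the neighbours Elane and Prtn3, 50 and 55 bases before their starts. Of 27025 mouse promoter windows of this length, 7.80% hold AGGAAGT, 14.8% hold AACGG and 1.11% hold both. Among 18 primary granule genes with a window, 9 held AGGAAGT, 6 held AACGG and 3 held both (Elane, Prtn3 and Gla). A C/EBP motif, TTGCNNAA, was in none of the 4 windows, in 2 of the 18 and in 9.55% of all windows. A match is a description of letters and shows no binding.

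The barcodes chosen were deep. The median member of WT, FLOX and VC had 34357, 24207 and 34226 UMIs, with 5586, 4784 and 5107 genes and 2.62%, 2.77% and 3.15% mitochondrial UMIs. The comparison set, 486, 606 and 248 other barcodes with Ptprc (CD45) and the same limits on Cdh5 and Cxcl12, had medians of 6030, 9784 and 9314 UMIs. No barcode sequence was chosen in more than 1 library, and 1 VC member shared its sequence with a kept FLOX barcode. Scrublet called no member a doublet, but it called 0.208%, 1.24% and 0.365% of all kept barcodes, too few in WT and VC to rely on.

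RNA of other cells was present. Cxcl12 was found in 17.6%, 45.9% and 41.2% of members, at no more than 3 UMIs in a cell. The plasma cell gene Jchain was found in 4.71%, 58.8% and 32.4%, with 164 of the 256 UMIs in FLOX in 1 cell and 60 of the 75 in VC in 1 cell. The haemoglobin gene Hba-a1 was found in 45.9%, 1.18% and 11.8%, and Cd79a of B cells in 1, 2 and 1 cells. Summed B lineage markers stood at 25.0 to 31.6 CPM (UMIs of a gene per 1000000 UMIs of the summed barcodes) and endothelial markers at 115 to 162 CPM, with Pax5 at 0 in each library. The part of this RNA in the results that follow was not tested. The 22, 10 and 8 members with no UMI of Cxcl12, Cd79a, Cd79b, Jchain or Pecam1 were also described alone. Pecam1 was found in 51.8%, 41.2% and 52.9% of members and Cd79b in 49.4%, 38.8% and 44.1%. Whether members express these genes themselves was not tested, so the barcodes left cannot be taken as members free of other RNA.

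Elane, the gene of neutrophil elastase, stood at 4203, 4261 and 6199.9 CPM in the order WT, FLOX and VC, with intervals of 4130 to 4276, 4176 to 4346 and 6049 to 6353. Mpo, myeloperoxidase, stood at 3001, 2049 and 2950 CPM. Prtn3, proteinase 3, stood at 3971, 4533 and 5940.4 CPM. These sums were carried by a fraction of the cells: the median VC member had 26.5 UMIs of Elane, against 54.0 in WT and 14.0 in FLOX, while its upper quartile was 393 against 234 and 181. The 3 genes together ranged from 5 to 1790 UMIs in a cell, with medians of 233, 76.0 and 91.5, and 62 of the 204 members held 500 or more. At the threshold, 25 members had 5 to 9 UMIs, 19 of them in FLOX, and 16 barcodes just outside it had 3 or 4. A further 40 barcodes passed on these genes and were left out for Cdh5 or Cxcl12.

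Ctsg, cathepsin G, was not in the rule. It was detected in 83.5% (73.9 to 90.7), 70.6% (59.7 to 80.0) and 88.2% (72.5 to 96.7) of members, again in the order WT, FLOX and VC, which holds wherever 3 values follow each other. In B lineage barcodes, which should lack it, 3.80%, 0.802% and 2.37% had a UMI, at median depths of 4982, 11904 and 7279 UMIs. Thinned to 2000 UMIs each, 63.1%, 54.8% and 59.4% of members had a UMI of Ctsg, and 1.22%, 0% and 0.595% of B lineage barcodes did. The members thus stood apart at equal depth too. Its level was 1773, 1528 and 2683 CPM. Across cells Ctsg followed Mpo (Spearman's rho 0.90 over 85 WT, 0.87 over 85 FLOX and 0.84 over 34 VC members) and followed Elane less closely (0.69, 0.62 and 0.69). These correlations are across cells of 1 library that share their depth, and the rule used Elane and Mpo.

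**Figure D1:**
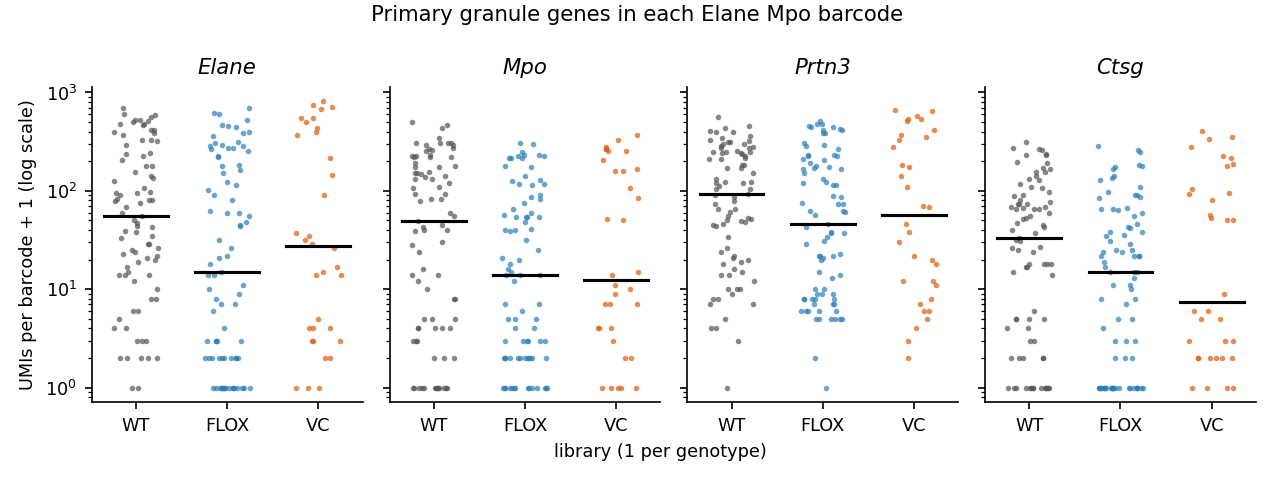
Each point is a barcode, its height the UMIs of the gene plus 1 on a log scale, and the black line is the median of the library. Each gene spans from 0 or 1 UMI to between 285 and 817 within a library. The highest VC points of Elane, Prtn3 and Ctsg (817, 658 and 407 UMIs) lie above those of WT and FLOX, although the VC medians of Mpo and Ctsg are the lowest of the 3.

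Beyond the rule, the members held more RNA of several other primary granule genes. Of 1491 genes whose mean over libraries reached 100 CPM in members, 88 (5.90%) were at least 2-fold above the other haematopoietic barcodes in each library. Of 21 primary granule genes 15 reached that level, and 10 of these were past 2-fold, 3 of them rule genes. The level was asked of members only, so genes low in members but high in the other barcodes could not enter, and these counts are descriptions. Cst7, cystatin F, an inhibitor of granule proteases, stood at 132, 108 and 165 CPM against 7.72, 4.88 and 3.15 in the other barcodes. Srgn, serglycin, the proteoglycan that packs granule proteases, stood at 1283, 1443 and 2181 against 579.7, 673 and 640.3. Ctsc, the peptidase that activates these proteases, stood at 102, 133 and 112 against 45.9, 43.1 and 53.5, unevenly across the sets of members described below. Cd63, Serpinb1a and Hexa were the other members of the list past 2-fold in each library. Lyz2, lysozyme, which later cells keep, was not, at 2584, 3328 and 2742 against 3589.7, 2227 and 3038 CPM.

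Among all genes the largest ratios, after Elane, Mpo, Prtn3, Ctsg and Cst7, were those of Ms4a3, Prss57, Gria3, Nkg7, Gstm1 and F13a1. Ms4a3, a marker of granulocyte and monocyte progenitors, stood at 617, 543 and 836 CPM against 39.2, 12.9 and 14.3. Prss57, a further granule serine protease, stood at 116, 101 and 172 against 8.51, 6.59 and 7.15. Clec12a, a myeloid lectin receptor, stood at 485, 363 and 467 against 115, 43.1 and 61.2. Genes of the B and plasma cell lines were lowest by ratio: Ebf1 stood at 0.989, 1.32 and 0 CPM against 1229, 177 and 350, and Jchain at 1.32, 112 and 72.1 against 1475, 19891 and 25057. In all 92 of 1687 genes at 100 CPM in either set (5.45%) were at least 2-fold lower in each library. The median log2 ratio of all 1491 genes was itself 0.30, 0.72 and 0.88, and the makeup of the comparison set differed between libraries.

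The members were not of 1 kind. Camp, Ngp and Ltf, specific granule genes, summed to at least 10 UMIs in 60 members (27 WT, 22 FLOX and 11 VC), called granule-gene members here. Irf8, Ly86, F13a1 and Csf1r, monocyte genes, did so in 83 others (42, 30 and 11), called monocyte-gene members. Prss34, Mcpt8 and Cpa3, basophil and mast cell genes, did so in 11 (3, 7 and 1), and at least 3 UMIs of Meis1 and Hlf, genes of early progenitors, marked 28 of the rest (5, 20 and 3), called stem-gene members. The remaining 22 (8, 6 and 8) reached none of these thresholds. They were set after the values had been seen, so the sets and the genes that differ between them are descriptions. The name "progenitor" therefore rests on the primary granule genes and on genes of division, and the 60 granule-gene members also carried genes of the next neutrophil stage, so the 204 are called Elane Mpo barcodes.

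Granule and monocyte genes were almost never found together. Only 1 of 204 members, in WT, had 10 or more UMIs of both sums, 59 had the granule genes alone, 83 the monocyte genes alone and 61 neither. Few lay near the threshold: 6 members had 3 to 9 UMIs of the granule sum and 1 had 10 to 19, against 59 with 20 or more. For the monocyte sum 11 had 3 to 9, 5 had 10 to 19 and 79 had 20 or more. The order of the 2 sets in the rule genes was not the same in each library. The median granule-gene member had 88.0, 511 and 265 UMIs of Elane, Mpo and Prtn3 in WT, FLOX and VC, and the median monocyte-gene member 238, 134 and 89.0, so WT alone had the higher median in monocyte-gene members. With libraries pooled, the median granule-gene member had 118 UMIs of Elane, 97.0 of Prtn3, 13 of Mpo and 2.50 of Ctsg. The median monocyte-gene member had 42.0, 111, 38.0 and 39.0 of the same genes.

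**Figure D2:**
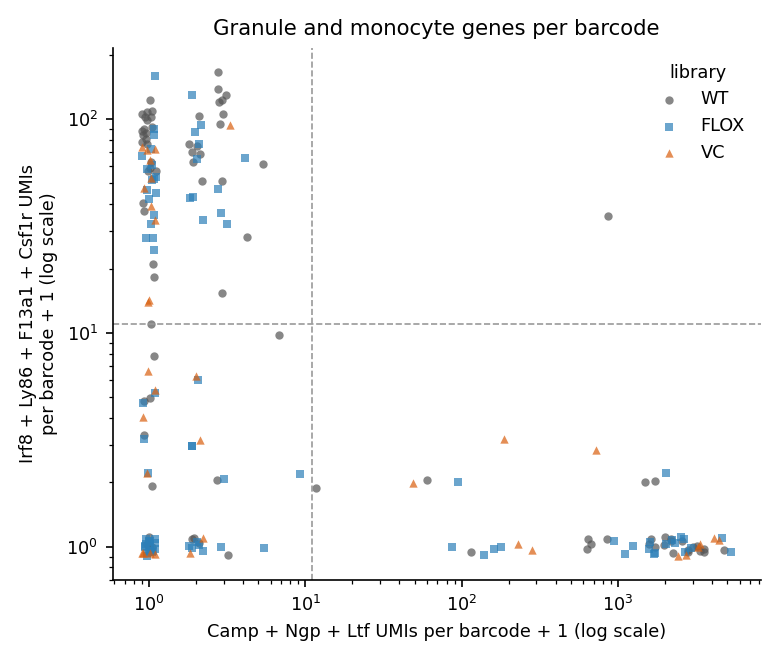
Each point is 1 of the 204 barcodes, placed by its UMIs of Camp, Ngp and Ltf (x axis) and of Irf8, Ly86, F13a1 and Csf1r (y axis), both plus 1 on log scales with a small random shift, with dashed lines at 10 UMIs. The points form 2 arms along the axes and a group near the origin, in all 3 libraries, and 1 WT barcode lies in the upper right.

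Few transcription factors of the list differed between the 2 sets, and those higher in monocyte-gene members were near the share of all genes. Of 34 factors of the list, 15 were at 100 CPM or more in either set, and in each library 3 of these were at least 2-fold higher in granule-gene members (Cebpd, Cebpe and Id2) and 2 in monocyte-gene members (Irf8 and Klf4), against 6.11% and 10.0% of all 1818 genes at that level. Cebpe, the factor of specific granule formation, stood at 623 CPM in granule-gene and 31.0 in monocyte-gene members, libraries pooled. It was higher in the granule-gene members of each library, at 518 against 27.3 in WT, 735 against 30.7 in FLOX and 655 against 50.0 in VC. Irf8, which was used to define the sets, stood at 11.6 against 595 CPM, and Klf4, which was not, at 0 against 326. Gfi1, a repressor of monocyte genes in neutrophil precursors, stood at 50.4 against 8.65, and at 113 in the 22 members of no set. Spi1, which encodes PU.1, stood at 330.3 against 314 CPM, and Cebpa, a factor of granulocyte commitment, at 33.1 against 68.6. Myb, a factor of immature cells, stood at 159.6 in granule-gene, 232 in monocyte-gene, 734 in basophil-gene, 535 in stem-gene and 705 CPM in the members of no set.

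Other genes of each line went with the sets. Granule-gene members had S100a8 at 71778 CPM against 662, Lcn2 at 5657 against 47.9, Fcnb at 2037 against 67.9 and Cybb, the NADPH oxidase subunit, at 1197 against 277. S100a8 RNA was also found in B lineage barcodes, which should lack it. Thinned to 2000 UMIs each, 31.6%, 9.81% and 9.52% of B lineage barcodes had a UMI of S100a8, against 48.8%, 46.4% and 43.8% of members. Without thinning the shares were 68.7%, 35.8% and 34.9% against 91.8%, 64.7% and 64.7%, at the depths given above. Retnlg, a gene of mature neutrophils, stood at 202 CPM in granule-gene members and at 1085, 646 and 877 in the other haematopoietic barcodes. Monocyte-gene members had the chemokine receptor Ccr2 at 330.2 CPM against 0.525, Fn1 at 184 against 0, S100a10 at 749 against 1.05 and Ctss at 174 against 1.05. At 100 CPM or more in either set and at least 2-fold in each library, 111 of the 1818 genes were higher in granule-gene and 182 in monocyte-gene members.

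Primary granule genes were found in each set, but not in each of its cells. The median stem-gene member had 0 UMIs of Elane, 1 of Mpo and 0 of Ctsg, and the median basophil-gene member 1 of Elane, 58.0 of Mpo and 41.0 of Ctsg. In the sums, Mpo stood at 2475 CPM in granule-gene, 2186 in monocyte-gene, 2365 in basophil-gene and 2044 in stem-gene members, and at 6424 in the 22 members of no set. Elane ranged further, at 7188, 2639, 1127, 1826 and 10195 CPM in the same order. The stem-gene level came from the few WT and VC cells, with Elane at 4614 CPM in the 5 of WT and 4035 in the 3 of VC, but 24.9 in the 20 of FLOX. The cells of WT held 467, 234, 13, 1 and 0 UMIs of Elane, and those of VC 400, 0 and 0. Those with 467, 234 and 400 had 3, 5 and 5 UMIs of Meis1 and Hlf, at or near the threshold of 3. Cd63, a granule membrane protein, stood at 984 CPM in granule-gene, 1083 in basophil-gene and 919.8 in members of no set, but at 46.6 in monocyte-gene members. Ctsc went the other way, at 227 CPM in monocyte-gene, 6.83 in granule-gene and 24.2 in members of no set. Only the monocyte-gene level lay above that of the other haematopoietic barcodes, 43.1 to 53.5 CPM. The members of no set had a median of 856 UMIs of the rule genes in WT and 966 in FLOX, above the other sets there, but 28.0 in VC, where the 8 cells were shallow, with a median of 4824 UMIs in all. Pooled, they had Camp at 26.0 CPM and Irf8 at 13.9 CPM.

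**Figure D3:**
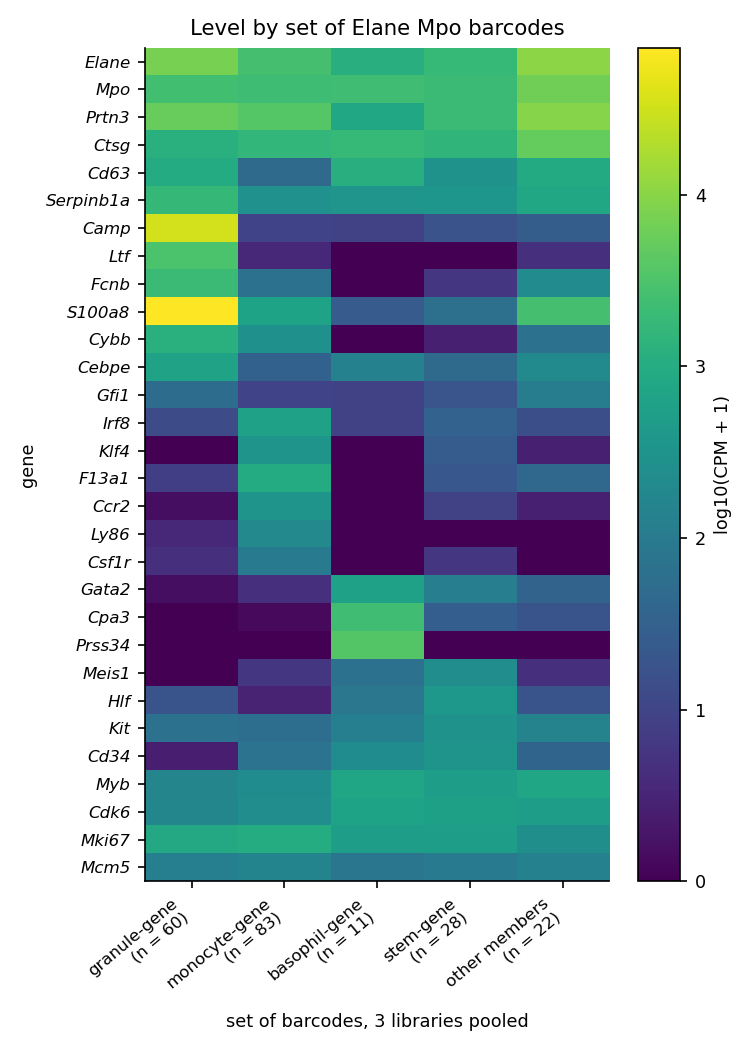
Colour gives log10(CPM + 1) of 30 genes (rows) in the 5 sets of barcodes (columns), the 3 libraries pooled. The top 4 rows are bright in every column of these sums, which a few cells can carry, Camp and S100a8 in the granule-gene column (33635 and 71778 CPM), Irf8 to Csf1r in the monocyte-gene column, Gata2, Cpa3 and Prss34 in the basophil-gene column, and Meis1 and Hlf in the stem-gene column.

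The stem-gene members of FLOX lay near the edge of the rule. Their median sum of Elane, Mpo and Prtn3 was 8 UMIs, and 14 of the 20 had fewer than 10. The medians of the 5 in WT and the 3 in VC were 101 and 94.0. All 28 stem-gene members, libraries pooled, had Meis1 at 239 CPM and Hlf at 395. Cd34, an early progenitor surface protein, stood at 331 and Kit, the receptor of stem cell factor, at 294 in the same sum. The FLOX library also held most of the Meis1 Hlf progenitor barcodes outside the rule, 147 against 2 in WT and 20 in VC, and 94.6% of those in FLOX had a UMI of Prtn3. Summed genes of the stem and early progenitor list stood accordingly at 1246, 2066 and 1628 CPM over all members. With the threshold at 10 UMIs the FLOX share of members was 1.15% in place of 1.48%.

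The basophil-gene members were few and uneven. Gata2, a factor of stem, basophil and mast cells, stood at 607 CPM in them and at 0.525 and 3.66 in the granule-gene and monocyte-gene members. Prss34, a basophil protease, was found in 2 WT, 4 FLOX and 0 VC members, with 381 of the 733 FLOX UMIs in 1 cell. In FLOX, 3 members held at least 20 UMIs of Prg2, Epx and Prg3, eosinophil granule genes, and 456 of the 660 UMIs of Prg2 came from 1 cell. Those of the basophil-gene set held 495 and 220 such UMIs, against 38 and 20 of the basophil sum. The other, a stem-gene member with 20, also held 164 UMIs of Jchain and 11 of Cd79a.

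Most Elane Mpo barcodes carried RNA of dividing cells. After each was thinned to 2000 UMIs, a UMI of Mki67 or Top2a was found in 84.5% (75.0 to 91.5), 72.6% (61.8 to 81.8) and 71.9% (53.3 to 86.3) of members, leaving out 1, 1 and 2 shallower ones. The same measure gave 32.8%, 19.2% and 8.75% of the other haematopoietic barcodes, and 41.0%, 32.1% and 21.6% of the granule-rich barcodes outside the rule. Without thinning it gave 95.3%, 88.2% and 94.1% of members. The intervals of the 3 libraries overlapped among members. In the other haematopoietic barcodes they ran from 28.5 to 37.2 in WT, from 16.1 to 22.6 in FLOX and from 5.50 to 13.1 in VC. These intervals count cells of 1 library each, so they test no difference between libraries.

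Both large sets held these genes. The share was 88.9% (70.8 to 97.6), 90.9% (70.8 to 98.9) and 63.6% (30.8 to 89.1) of granule-gene members, and 90.5% (77.4 to 97.3), 96.7% (82.8 to 99.9) and 72.7% (39.0 to 94.0) of monocyte-gene members. It was 35.0% (15.4 to 59.2) of the 20 stem-gene members of FLOX. In B lineage barcodes, where dividing B cells and free RNA both count, it was 29.8%, 12.3% and 5.95%.

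**Figure D4:**
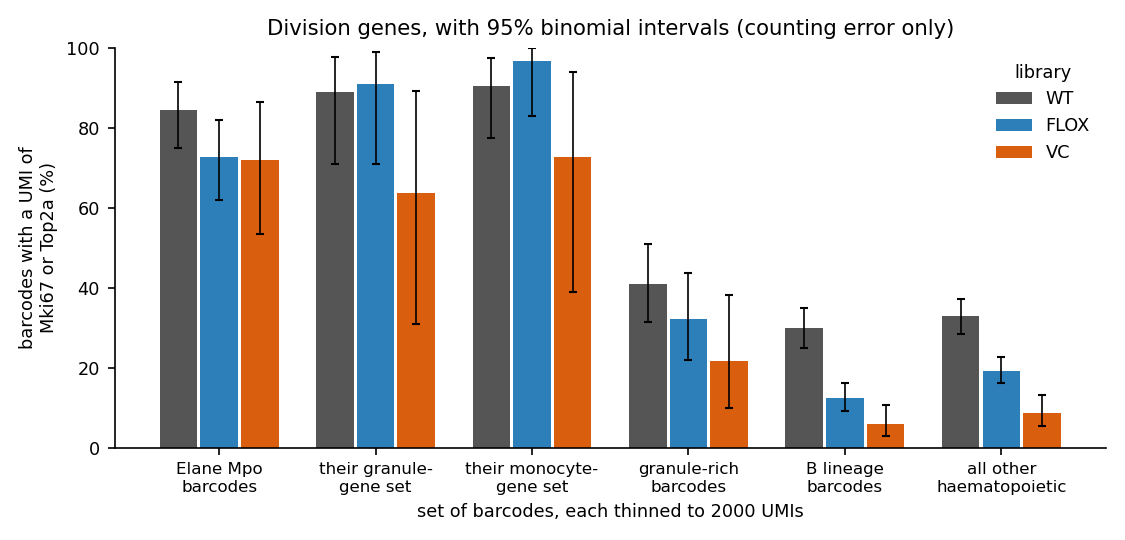
Bars give the percent of barcodes with at least 1 UMI of Mki67 or Top2a after thinning to 2000 UMIs, by set and library, with 95% binomial intervals that cover counting error only. The Elane Mpo barcodes stand at 71.9% to 84.5%, above the granule-rich barcodes (21.6% to 41.0%) and all other haematopoietic barcodes (8.75% to 32.8%).

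Between genotypes, the rule of size asked for a gene at 100 CPM or more, at least 2-fold from both other libraries and by more than those differed. No gene met it upwards in VC (0 of 1491, 0%), and 2 did downwards (0.134%). With WT as the odd library 1 was higher (0.0671%) and 3 lower (0.201%), and with FLOX 2 were higher (0.134%) and 1 lower (0.0671%). The 2 lower in VC were Prss34 (53.1, 322 and 0 CPM) and Mcpt8 (88.3, 252 and 10.6), the basophil genes carried by a few cells. At 1.5-fold, 5 genes were higher in VC (0.335%) and 16 lower (1.07%), against 28 (1.88%) and 11 (0.738%) for WT and 9 (0.604%) and 8 (0.537%) for FLOX. By these counts VC stood no further from the others than WT did. With 1 library each, genotype, animal and preparation cannot be told apart.

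Those higher in VC at 1.5-fold were Ctsg and Srgn, both granule genes, the immunoproteasome subunit Psmb9 (110.4, 130.3 and 202 CPM), Rgcc (220.2, 205 and 349) and a gene of the classes left unnamed. The sets differed in this: within granule-gene members Ctsg stood at 759, 1138 and 2355 CPM, within monocyte-gene members at 1749, 1411 and 1822. Those lower in VC included the linker histone Hist1h1e (969, 1076 and 506 CPM), found in 79, 76 and 32 cells, and Hist1h1a, Hist1h1b and Hist1h1c. Slpi, a protease inhibitor, stood at 375, 358 and 194 CPM. Runx1, a factor of blood progenitors, stood at 149, 131 and 81.7 CPM, with intervals of 136 to 164, 117 to 147 and 65.2 to 101.

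By their medians, monocyte genes were lower in the sums of VC than of WT. This held for the 9 of the list at 100 CPM and the 17 at 20 CPM. The median log2 ratio of all genes was also negative, at -0.07 and -0.14. Irf8 stood at 396 (374 to 419), 208 (190 to 228) and 156 CPM (133 to 182), and F13a1, a coagulation factor subunit of monocytes, at 549.9, 428 and 303. Fn1, fibronectin, went the other way, at 86.0, 81.2 and 104. The share of monocyte-gene members was 49.4% (38.4 to 60.5), 35.3% (25.2 to 46.4) and 32.4% (17.4 to 50.5), with overlapping intervals. Within these members the summed list was not lower in VC, at 7465, 8214 and 8280.3 CPM. There Irf8 stood at 682, 489.7 and 444, but Fn1 at 152, 196 and 318, Ctss at 131, 219 and 265 and Ccr2 at 266, 437 and 359. Over all members the 9 genes had a median log2 ratio of -0.60 for VC to WT and -0.37 for VC to FLOX, against -0.07 and -0.05 for all genes, and none of them was past 1.5-fold against both. At 20 CPM the medians of the 17 genes were -0.42 and -0.18, against -0.14 and -0.09.

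At 20 CPM or more the 4 genes at least 2-fold higher in VC (0.0693% of 5772) were G0s2, Gbp7, Ifi27l2a and Ifi47. G0s2, an inhibitor of fat breakdown that was also high in granule-gene members (231 CPM against 4.66 in monocyte-gene members), stood at 65.3, 64.9 and 155 CPM in 32, 32 and 16 cells. The 30 genes at least 2-fold lower (0.520%) included Retnlg, of mature neutrophils, at 93.3, 41.7 and 6.73 CPM in 9, 8 and 4 cells.

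Interferon response genes were higher in the VC library. Of the 44 genes of the list, 20 were at 20 CPM or more, and 11 of these were at least 1.5-fold above both controls and by more than the controls differed, against 49 of 5772 genes (0.849%). Of the same 20, 18 were above both by any amount, against 20.9% of all genes. The list was chosen with earlier results of these data known, so these counts are descriptions. The medians were a log2 ratio of 0.87 for VC to WT, 0.68 for VC to FLOX and 0.14 for FLOX to WT, where all 5772 genes had -0.14, -0.09 and -0.05. At 100 CPM only 5 of the list remained, with medians of 0.57, 0.29 and 0.25.

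Irf1, a transcription factor induced by interferon, stood at 19.8 (15.1 to 25.5), 25.9 (19.7 to 33.4) and 50.0 CPM (37.3 to 65.5). The guanylate binding protein gene Gbp7 stood at 30.7, 32.0 and 75.9 and the GTPase gene Ifi47 at 26.7, 15.4 and 59.6, found in 43, 25 and 19 cells. In each of these 3 genes the VC interval lay above both others. Antigen processing went the same way, with Psmb9 as above and Tap1, a peptide transporter, at 47.5, 52.6 and 89.4, but B2m, the class I light chain, was at 564, 594 and 653 CPM and H2-D1 at 453, 682 and 669.8, the latter no higher in VC than in FLOX. The chemokine genes Cxcl9 and Cxcl10 gave few UMIs in members, 3, 1 and 4 of Cxcl9 and 15, 15 and 10 of Cxcl10. Ifngr1, a chain of the interferon gamma receptor, stood at 261, 204 and 229 CPM, above the 87.7, 65.0 and 64.9 of other haematopoietic barcodes.

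The difference was found in some VC cells more than in all. The summed list stood at 2435 (2379.9 to 2491), 2982 (2912 to 3054) and 3966 CPM (3846 to 4089), but the median member had 2416, 3003 and 2897 CPM, so the median VC cell was no higher than the median FLOX cell. The upper quartile was 2985, 3883 and 5389, and the highest member 6122, 6847 and 11363, the latter the single basophil-gene member of VC. That cell held 28 UMIs of the basophil sum and 17 of Meis1 and Hlf, with 0 of Elane and Ctsg. Its place in that set does not make it a basophil. Without the highest member of each library the medians at 100 CPM were 0.56 for VC to WT and 0.18 for VC to FLOX. By set, it was 1692, 1937 and 3266 CPM in granule-gene and 2613, 2987 and 4830.4 in monocyte-gene members, but 2857, 2399.5 and 2320.1 in members of no set, and 2969, 4922 and 3904 in stem-gene members. Other haematopoietic barcodes stood at 3364, 4606 and 5689.9 CPM, the same order of libraries. In the 22, 10 and 8 members with no UMI of Cxcl12, Cd79a, Cd79b, Jchain or Pecam1, VC lay below FLOX, with a median log2 ratio of -0.57. Whether members express some of these genes themselves was not tested.

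**Figure D5:**
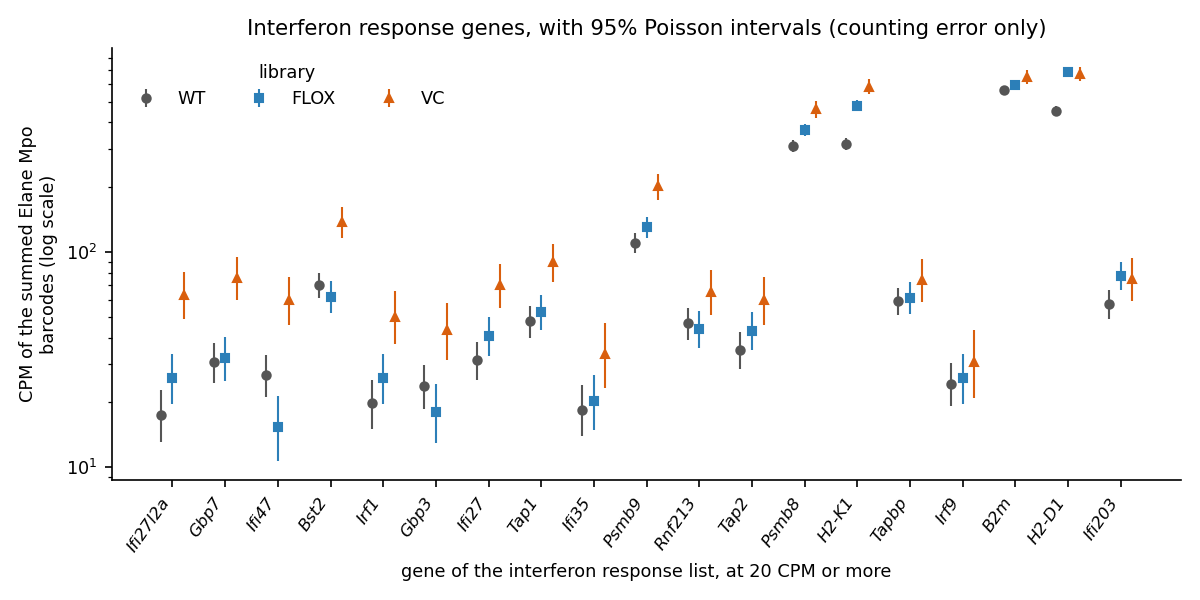
Points give the CPM of the summed Elane Mpo barcodes of each library for 19 of the 20 interferon response genes at 20 CPM or more, on a log scale with 95% Poisson intervals, ordered by the smaller of the ratios of VC to WT and to FLOX. VC (triangles) is highest in 17 of those shown, and in H2-D1 and Ifi203 it lies just below FLOX.

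Of growth factor, cytokine and adhesion receptors, 10 were at 100 CPM in members. Of these, 3 were at least 2-fold above other haematopoietic barcodes in each library, namely Clec12a, Ifngr1 and the Fc receptor Fcgr3, against 5.90% of all genes at that level. None of the 10 was past 1.5-fold in VC in either direction, as was the case for most genes (0.335% higher and 1.07% lower). Cxcr4, the receptor of the niche chemokine Cxcl12, stood at 102 (90.5 to 114), 107 (94.4 to 122) and 104 CPM (85.1 to 125). Its level was 143 CPM in monocyte-gene and 69.3 in granule-gene members. Receptors of VEGF-C were near the detection limit: Flt4 had 4, 2 and 2 UMIs and Kdr 6, 12 and 4 in all members, Vegfc itself 1, 0 and 0, where 3 UMIs would be 0.989, 1.32 and 2.88 CPM. The coreceptor Nrp1 stood at 28.7, 40.4 and 36.5 CPM, with 66.6 in monocyte-gene and 5.78 in granule-gene members.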

How the data were processed

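Marrow endothelial and LepR-positive cells were profiled with the 10x 3′ kit v3.1, per the labels' protocols. The deposited values are raw UMI counts per gene (31053) and barcode, without scaling. Tools given are Cell Ranger 2.1.1 and Seurat 3.1 with build mm10, per the submitters' processing notes, and version 3.1.0 of the matrix software, per the file headers. Which of them wrote the counts is uncertain. Library totals were 56853574, 61758462 and 37361779 UMIs for WT, FLOX and VC.

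Counts of member barcodes were summed per library and scaled to CPM, with numpy 2.4.6, scipy 1.17.1, pandas 2.3.3 and scanpy 1.11.5 (Scrublet, expected rate 6%, no cells removed in the main values). Comparison sets held no member and kept the same limits on Cdh5 and Cxcl12. Other haematopoietic barcodes had at least 1 UMI of Ptprc. Meis1 Hlf progenitor barcodes had at least 1 UMI each of Ptprc, Meis1 and Hlf. Granule-rich barcodes had at least 10 UMIs of Camp, Ngp and Ltf with at least 2 of these detected. B lineage barcodes had at least 3 UMIs of Cd79a and Cd79b. Ptprc was not asked of the granule-rich and B lineage barcodes. With 1 library per genotype no test was run. The rule of size took genes at least 2-fold, and also 1.5-fold, from both other libraries and by more than those differed, at a mean of 100 CPM, and 20 CPM as an alternative. Named genes are the 4 markers, members of 28 gene lists, and the genes with the largest ratios (20 higher and 10 lower than other barcodes, 12 in each direction for VC), leaving out mitochondrial, ribosomal, immunoglobulin, haemoglobin and sex-linked genes there. Names outside this rule were chosen after their values were seen. The members and lists were chosen with earlier results of these data known. Alternatives, 11 planned and 3 added after the data were seen, varied cell filters, the member threshold, mixed droplets, scaling, weighting, size and level. The list counts include 1 interferon gene that is not reported here by name. Scripts were tested on simulated data.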

Additional observations from a re-analysis of the deposited data

How the results depend on the processing

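No paired analysis was possible because each genotype is 1 library. With 34 VC members and 1040668 UMIs, levels under a few CPM cannot be compared, and the intervals leave out the spread between mice. Of 119 values under alternatives for the main results, 85 stayed, shares within the counting interval and counts within 1.5 times. The interferon log2 medians had another tolerance. For VC to WT, 0.25 and 1.03 both counted as unmoved from 0.57, and for VC to FLOX 0.96 counted as moved from 0.29. The share of members among kept barcodes was 1.15% in FLOX at 10 or more UMIs of the rule genes. It was 0.509%, 0.174% and 0.292% (WT, FLOX, VC) with no UMI of Cxcl12, Cd79a, Cd79b, Jchain or Pecam1, called the 5 genes here. With under 10 UMIs of Camp, Ngp and Ltf it was 1.34%, 1.10% and 0.840%. The share with Mki67 or Top2a was 88.9% in VC under the stricter cell filter (1000 genes, 5% mitochondrial), which kept 27 VC members. Thinning is a random draw, and how far these shares move from draw to draw was not measured. A moved share is therefore not an effect of the setting alone. In FLOX it was 60.0% with no UMI of the 5 genes, and 90.9% and 96.7% for granule-gene and monocyte-gene members alone. Genes higher and lower in VC, 0 and 2, became 1 and 1 under the stricter filter and 4 and 57 with no UMI of the 5 genes. They became 1 and 5 without granule-gene barcodes, 3 and 1 with every member weighted alike, 5 and 16 at 1.5-fold and 4 and 30 at 20 CPM. They were 4 and 4 in granule-gene members alone and 0 and 11 in monocyte-gene members alone. Genes lower were 0 at 10 or more UMIs of the rule genes and 0 without the doublet calls and highest doublet scores. The interferon median of VC to FLOX was -0.57 with no UMI of the 5 genes (22, 10 and 8 members) and 0.96 in granule-gene members alone. Over all alternatives it ran from -0.57 to 0.96 (VC to WT 0.25 to 1.03). Psmb9, whose smaller log2 ratio was 0.63, stood at -0.31 with no UMI of the 5 genes. Genes at least 2-fold above other haematopoietic barcodes, 88, became 148 without granule-gene barcodes, 146 with every member weighted alike, 329 at 1.5-fold and 267 at 20 CPM. Scaling by median-of-ratios size factors moved the log2 ratios by 0.12 (VC to WT), 0.10 (VC to FLOX) and 0.02 (FLOX to WT). The cause of these changes was not tested.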

Other observations

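Genes for making and folding secreted protein did not stand above other haematopoietic barcodes alike in the 3 libraries. Of 24 genes of the endoplasmic reticulum list at 100 CPM or more in members, 4 were at least 2-fold above other haematopoietic barcodes in each library. This compares with 88 of 1491 genes (5.90%), and plasma cells enter the comparison set of FLOX and VC. The median log2 ratio of the 24 was 1.14, 0.37 and 0.45, above that of all genes in WT (0.30) but below it in FLOX and VC (0.72 and 0.88). Of the 4, Calr, calreticulin, stood, in the order WT, FLOX and VC, at 1083, 1005 and 1139 CPM against 242, 489 and 424, and P4hb, a disulfide isomerase, at 452, 351 and 405 against 105, 128 and 135. Xbp1, the factor of plasma cells, went the other way in FLOX and VC, at 198, 150 and 141 against 159, 549 and 591. By set, Calr stood at 568 CPM in granule-gene, 1136 in monocyte-gene and 1774 in the members of no set.

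Ribosome biogenesis divided the sets more than the libraries. Ncl, nucleolin, stood at 493 CPM in granule-gene, 1318 in monocyte-gene, 1441 in stem-gene and 1697 in the members of no set, and Npm1, nucleophosmin, at 562, 1937, 2297 and 1983. Between libraries Ncl stood at 1384, 933 and 789 CPM, and the list of 10 genes had a median log2 ratio of -0.57 for VC to WT, -0.03 for VC to FLOX and -0.52 for FLOX to WT, so FLOX and VC lay together below WT. Immediate early genes, which respond to stimuli within minutes, had medians of 0.17, -0.40 and 0.60 in the same order, with Jun at 204, 363 and 209 CPM. Mitotic and replication genes did not share an order: the medians of FLOX to WT were 0.29 for 15 mitosis genes and -0.34 for 14 replication genes. Ube2c, a mitotic ubiquitin ligase subunit, stood at 132, 359 and 278 CPM, and Mcm6, a subunit of the replicative helicase, at 252, 147 and 156.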
